A study of Salmo salar with 58 samples.

Results

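How the unexposed liver of Salmo salar, the Atlantic salmon, differs from its distal intestine was described in 6 control livers and 4 control intestines, 10 of the 58 polyadenylated RNA libraries of the series. Control intestines 5 and 6 carry the same label but were left out because they lacked the transcripts of absorbing enterocytes (npc1l1, apoa1, slc6a19 and cdx1b) and were high in the smooth muscle actin gene acta2. The intestines were thus chosen by the measured values of those 5 genes, so every contrast of the 10 libraries is given as a description, with values and without a test. The tissue difference was tested in other libraries, 23 livers and 23 intestines of fish sampled 12 h after acute exposure to low or high enniatin B or beauvericin, toxins of Fusarium moulds. Each tissue had 6 samples for either dose of enniatin B, 5 for low beauvericin and 6 for the high dose, and a gene's tissue difference there is the mean over the 4 exposures. The labels give neither the vehicle of the controls nor the age, sex or strain of the fish. Nor do they state whether replicates are separate fish, or whether a number names the same fish in both tissues, so p-values measure the spread between samples.

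The liver makes most proteins of blood plasma, stores glycogen, breaks down amino acids and forms bile, work done chiefly by hepatocytes. The distal intestine takes up nutrients through a single layer of enterocytes whose apical membrane is folded into a brush border of microvilli, above a wall of smooth muscle, nerves, connective tissue and many immune cells. Both organs grow from the endoderm, and salmonids carry many paired gene copies from a genome duplication in their ancestor, so that copies of 1 gene can be used in different organs.

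Values are normalized read counts, that is reads divided by a factor of the library, for 26239 genes. They are not divided by gene length, so levels are compared between samples and not between genes. Differences are liver minus intestine on the scale of log2(value + 2), so positive values are higher in liver and negative values higher in intestine. Control livers held 31.3 to 35.5 M (mega) reads and control intestines 1 to 4 held 31.4 to 39.3 M reads, against 30.7 to 61.7 and 30.3 to 40.6 M reads in exposed livers and intestines. Over genes, log2 values of control livers correlated with each other at 0.940 to 0.963 and those of control intestines 1 to 4 at 0.911 to 0.955, whereas livers and intestines correlated at 0.325 to 0.365. Control intestines 5 and 6, left out, correlated with intestines 1 to 4 at 0.61 to 0.661 and with control livers at 0.411 to 0.428. The closeness of intestines 1 to 4 follows in part from their choice. Reads were more concentrated in liver, where the 10 most abundant genes of a library took 20.6 to 22.9% of reads against 7.57 to 11.2% in intestines 1 to 4.

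Of 26194 genes with enough reads in the 10 control libraries, 13103 (50.0%) had groups that did not overlap, 22.2% higher in liver and 27.8% higher in intestine. Among those with means at least 2-fold apart, 4438 (16.9% of genes) were higher in liver and 6201 (23.7%) higher in intestine. Differences of 10 log2 units or more were found for 226 genes on the liver side and 103 on the intestine side. In the exposed fish, 4160 of 26239 genes (15.9%) were higher in liver and 6194 (23.6%) higher in intestine by more than 2-fold (limma treat, Benjamini-Hochberg adjusted p under 0.05), which makes 39.5% in either direction. The counts of the gene lists below stand against these shares, and a count near them says nothing particular of a list. Of the genes apart in controls, 85.2% of the liver set and 90.0% of the intestine set were called in the same direction in the exposed fish, and none in the opposite one. The median difference of all genes was -0.10 in controls and -0.08 in exposed fish. That balance rests on the scaling. With each library scaled to the same number of reads (per-million scaling) the median in exposed fish moved to -1.37 and the counts to 2043 genes higher in liver and 15166 higher in intestine, because the total of normalized counts was 45.7 to 60.6 M reads in control livers and 19.7 to 23.8 M reads in control intestines 1 to 4. Calls that were lost under that scaling are given beside the genes named or as a count for their list.

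**Figure D1:**
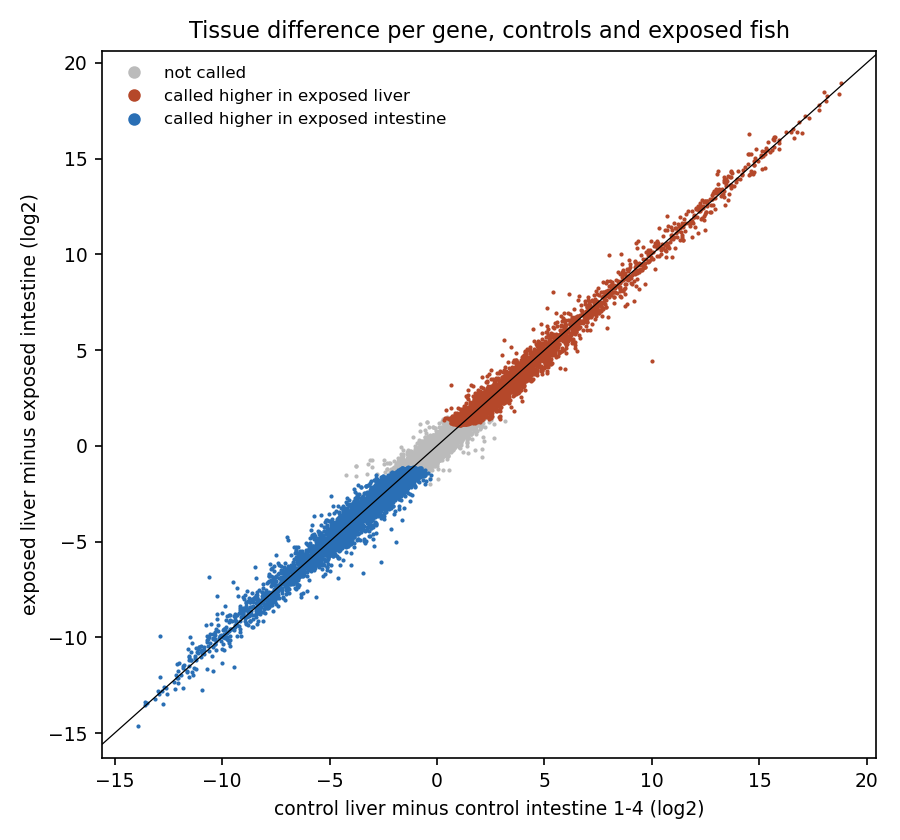
Each point is 1 gene, with the log2 difference of control liver minus control intestine (6 against 4 libraries) on the x axis and the same difference in exposed fish (23 against 23) on the y axis; colours mark genes called by limma in the exposed fish and the line marks equal differences. Over genes the values correlated at 0.992, and no gene apart in controls was called in the opposite direction.

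All 12 libraries labelled as control were also tested as labelled. With control intestines 5 and 6 included, 2669 genes (10.2% of 26212) were higher in liver and 3723 (14.2%) higher in intestine by more than 2-fold (limma treat). In that comparison 9 of 21 brush border genes and 9 of 24 uptake carriers were called higher in intestine, against 17 and 16 in exposed fish.

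The 8 measured hepatocyte markers summed to 116000 to 129000 RPM (reads scaled to the library total) in the control livers and 0.319 to 1.86 in control intestines 1 to 4. The 10 measured enterocyte markers summed to 6880 to 9070 RPM in intestine and 54.9 to 139 in liver, a sum that includes cdx1b, npc1l1 and slc6a19, which chose the intestines. One enterocyte marker overlapped between the tissues. The endocytic receptor cubn, which in zebrafish marks the protein-absorbing enterocytes of the posterior gut, had 55.5, 75.2, 71.2 and 95 in control intestines 1 to 4 and 23.95 to 75.2 in control livers. In exposed intestines cubn was at 300 or less in 21 of 23 libraries and reached 47461 in replicate 3 of low enniatin B. It was not called in exposed fish (-1.50 ± 0.52, limma adjusted p = 0.39), but was called higher in intestine by edgeR, under per-million scaling and when any difference was tested. Since the samples are whole tissue, fewer cells of a type and less RNA per cell cannot be told apart.

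Secreted plasma proteins stood furthest apart. All 12 measured plasma transport proteins and protease inhibitors were higher in control livers with no overlap, with a median difference of 15.10, and all 12 were called higher in exposed livers, against 15.9% of all genes tested. Albumin (alb2, GeneID 100136575), the main carrier protein of plasma, had 1935986 to 2837945 (median 2370164) in the 6 control livers and 5.905, 1.41, 1.13 and 8.695 in control intestines 1 to 4. Fetuin B (fetub), a protease inhibitor of plasma, had 898688 to 1316783 (median 1164550) in liver and 0, 0, 0 and 2.675 in intestine. No intestinal library came near any liver library for either gene. Hemopexin (hpxa), which binds free haem, had 408832 to 867449 (median 567905) in liver and no read in the 4 intestines, which makes it at least 1241527-fold higher, taking 3 reads over the 4 libraries as the floor. Such ratios, here and below, hold for the deposited scaling, and those on the liver side would be lower under per-million scaling. Transferrin (tfa), the iron carrier, had 706535 to 2034693 (median 1632683) in liver and 3.54, 0, 6.78 and 11.4 in intestine. Its liver values fell into a lower pair, replicates 2 and 3, and 4 higher libraries. The haemoglobin-binding haptoglobin (hp) ranged more widely in liver, at 22339 to 214508 (median 114691), with the lowest value again in replicate 2, and had 1.18, 0, 0 and 0 in intestine. The members with the smallest differences were angiotensinogen (agt), the precursor of angiotensin, with 37447 to 104339 (median 79893) in liver and 1106, 778, 465 and 1425 in intestine, and the retinol carrier rbp4, with 75972 to 112197 (median 81650) and 840, 219, 469 and 1170. In exposed fish agt differed by 5.83 ± 0.16 and rbp4 by 7.06 ± 0.12 log2 units (limma adjusted p = 3.1e-28 and 2.3e-38).

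**Figure D2:**
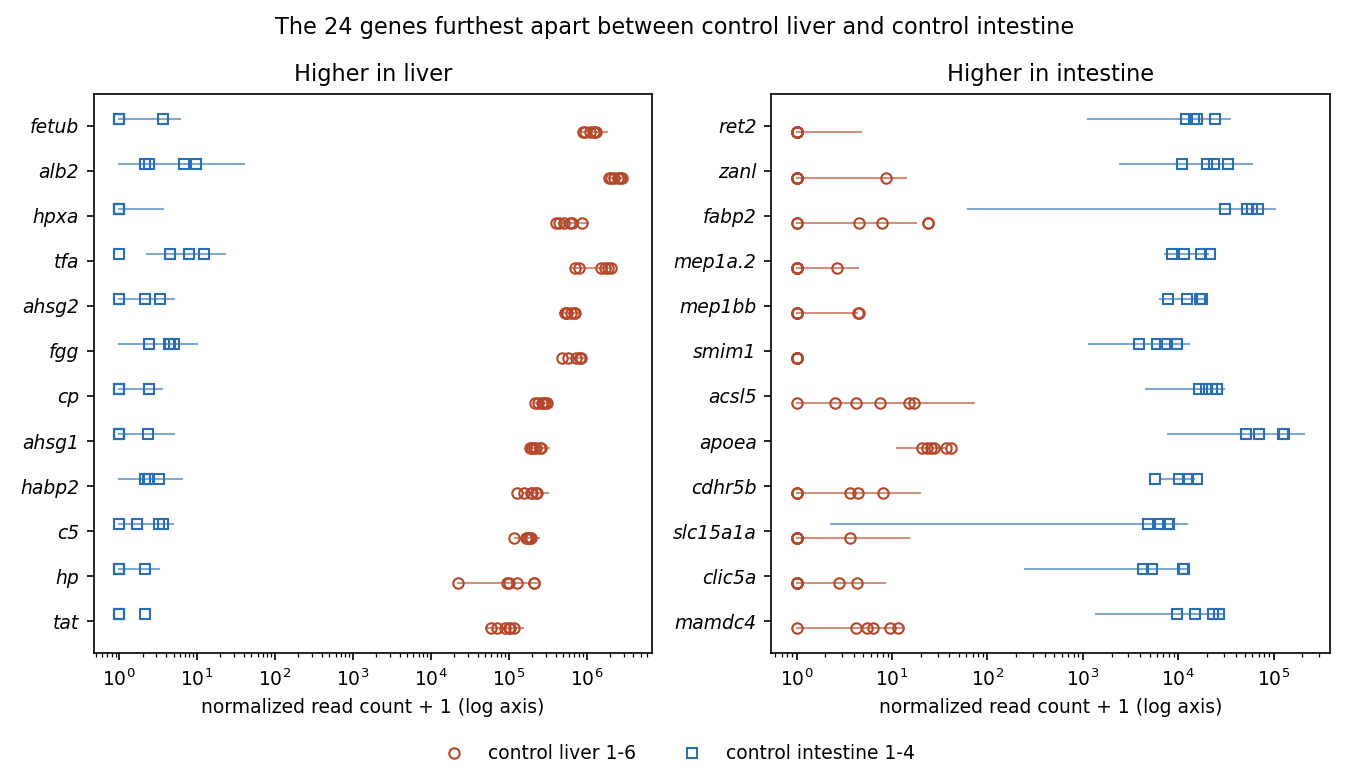
Normalized read count plus 1 on a log axis for the 12 named genes furthest apart on each side; circles are the 6 control livers, squares the 4 control intestines, and lines span the 23 exposed libraries of each tissue. The circles and squares of each of the 24 genes are separate. The lines of the exposed intestines end at the lowest library, which is at low values for fabp2 and slc15a1a.

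The clotting and complement cascades, series of plasma proteases and their cofactors, were also transcribed mostly in liver. Of 12 measured coagulation and fibrinolysis genes, 11 were higher in exposed livers and 1 in exposed intestines, and the median difference in controls was 9.50. The fibrinogen gamma chain (fgg) had 489600 to 860442 (median 772386) in control livers and 3.54, 1.41, 3.39 and 4.01 in control intestines. Plasminogen (plg), the precursor of the clot-dissolving enzyme, had 207596 to 252169 (median 229166) and 8.27, 25.3, 3.955 and 3.34. The exception was 1 copy of protein Z. Copy prozb had 13247 to 19950 (median 15335) in liver and 403, 401, 419 and 338 in intestine, while proza had 161 to 300 (median 199) in liver and 564.5, 393, 605 and 600 in intestine, with no overlap in either case. In exposed fish prozb differed by 5.36 ± 0.14 and proza by -1.41 ± 0.08 (limma adjusted p = 2.7e-29 and 6.4e-06).

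Of 13 measured complement genes, 9 were higher in exposed livers, 1 was higher in exposed intestines and 3 were not called. Component c5, which starts the membrane attack complex, had 116480 to 191157 (median 175328) in control livers and 0, 0.703, 2.26 and 2.675 in control intestines. The pore subunit c8b had 53204 to 93652 (median 77178) in liver and no read in the 4 intestines, at least 158341-fold higher. The lectin mbl2, a pattern recognition protein of the lectin pathway, was the member on the intestine side, with 495 to 1478 (median 886) in liver and 30108, 23734, 43408 and 27604 in intestine. It differed by -4.86 ± 0.15 in exposed fish (limma adjusted p = 1.1e-26), opposite to masp1 and masp2, the proteases of that pathway, which differed by 5.14 and 7.48 and were called higher in liver. The copies c7a and c7b of a further pore component overlapped between tissues. c7b varied from 99.1 to 3991 among control livers, the highest in replicate 4, against 214 to 407 in intestine. Together the 37 plasma, coagulation and complement genes took 14.7 to 16.3% of the reads of control livers and 0.135 to 0.257% of those of intestines 1 to 4.

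Apolipoproteins, the proteins of lipid transport particles, divided between the organs. Of the 10 measured genes of lipoproteins and lipid export, 7 were higher in exposed livers and 2 in exposed intestines, and apoa1 was not called. Apolipoprotein B copies apoba and apobb.1, which encode the scaffold of very low density lipoproteins and chylomicrons, were both on the liver side. apoba had 79774 to 127134 (median 100456) in control livers and 6.495, 0, 1.13 and 0 in control intestines. apobb.1 had 407133 to 546057 (median 515016) and 11.8, 2.81, 52 and 27.4. The highest value of either gene in an exposed intestine was 177, for apobb.1. The apolipoprotein E copies went in opposite directions. apoea had 19.6 to 40.85 (median 25.5) in liver and 128725, 69480, 50970 and 124865 in intestine, and apoeb had 653 to 2788 (median 1075) in liver and 302, 134, 296 and 499 in intestine. In exposed fish apoea differed by -12.08 ± 0.21 and apoeb by 2.88 ± 0.17 (limma adjusted p = 2.7e-37 and 1e-13). In the Ssal_v3.1 gene order apoeb is followed by apoc1, apoa2 and apoc2, all of them higher in liver. The first of these, apoc1, had 484076 to 773344 (median 534202) in liver and 166.5, 38, 110 and 340 in intestine. apoa2 had 560969 to 917822 (median 710727) and 7490, 1562, 5797 and 4767. The main protein of high density lipoprotein, apoa1, was abundant in both organs, with 57116 to 325209 (median 229420) in liver and 401514, 214365, 257385 and 368492 in intestine. It was 1 of the genes that chose the libraries and differed by -0.58 ± 0.27 in exposed fish, which was not called (limma adjusted p = 1). It was called higher in intestine under per-million scaling and when any difference was tested. The lipid transfer protein pltp, the other member on the intestine side, had 14.5 to 44 (median 30) in liver and 563, 409, 546 and 627 in intestine.

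A run of liver genes was likewise adjacent. In the same gene order ahsg1, a copy of fetuin A, fetub, a gene with only a clone name, hps3 and ceruloplasmin (cp), the copper carrier of plasma, follow each other. Their control differences were 16.57, 18.78, 13.36, 1.58 and 16.83, so that hps3, which encodes a protein of lysosome-related organelles, was the member nearest to equal levels.

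Enzymes of amino acid breakdown and the urea cycle, listed with some of purine and pyrimidine breakdown, were mostly higher in liver. Of 36 measured enzymes, 27 were higher in exposed livers and 1 in exposed intestines, with a median control difference of 4.71. Under per-million scaling the counts were 22 and 2. Tyrosine aminotransferase (tat), the first enzyme of tyrosine breakdown, had 58946 to 118072 (median 95573) in control livers and 0, 0, 1.13 and 0 in control intestines. Histidine ammonia-lyase (hal) had 30071 to 49582 (median 36896) and 0, 1.41, 0 and 13.4. Tryptophan dioxygenase (tdo2a) had 16358 to 39088 (median 30030) in liver and, with 1 read in the 4 libraries, 0, 0, 0.565 and 0 in intestine. Urate oxidase (uox), of purine breakdown, had 11347 to 20942 (median 16237) and 0, 0, 2.26 and 0.669. Over these 4 genes the highest value in the control intestines was 13.4 and the lowest in the control livers 11347. The enzyme on the intestine side was aspartate aminotransferase got1, with 174 to 398 (median 256) in liver and 1584, 1144, 865 and 1794 in intestine. Argininosuccinate lyase (asl), a urea cycle enzyme, had groups that overlapped, with 432.5 to 733.5 (median 603) and 566, 420, 408.5 and 605.

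Glucose and glycogen genes were higher in liver for 7 of 8 members in exposed fish. Liver glycogen synthase (gys2) had 3856 to 5240 (median 4316) in control livers and 2.36, 0, 6.78 and 0 in control intestines. The glycogen branching enzyme copies gbe1a and gbe1b were both called. gbe1b had 848 to 4869 (median 1544) in liver and 95.7, 94.2, 19.8 and 27.4 in intestine, and gbe1a had 19.5 to 110.5 (median 88.5) and 11.8, 23.9, 20.9 and 11.4, where the groups overlapped. The intestine side was represented by fbp1a, 1 copy of fructose bisphosphatase, at 6.52 to 21.3 (median 9.19) in liver and 46.1, 69.6, 97.2 and 46.8 in intestine. Of the 7 genes on the liver side, 3 were still called under per-million scaling. The difference of gbe1a in exposed fish was 1.435, and that scaling shifted the median of all genes by -1.297, so the call of gbe1a rests on the scaling.

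All 5 iron handling genes and 6 of 7 liver hormone and binding protein genes were called higher in exposed livers, none in exposed intestines. Under per-million scaling 4 and 5 were called. Some lists share genes, so their counts are not independent. Here hamp is in both lists, and cp, of the iron list, is also among the plasma transport proteins. Hepcidin (hamp), the hormone that lowers iron export and an antimicrobial peptide, varied widely among control livers, at 1021 to 10649 (median 3668), and had 2.36, 0, 1.13 and 5.35 in intestine. The iron sensor tfr2 had 106 to 228 (median 153) in liver and no read in the 4 intestines, at least 319-fold higher. Growth hormone receptor copies differed between themselves. ghra had 639 to 1051 (median 771) in liver and 14.8, 26.7, 27.7 and 18.7 in intestine, and ghrb had 295 to 1749 (median 486) and 349, 201, 182 and 732, which overlap. The insulin-like growth factor binding protein igfbp1a overlapped in controls, at 19.4 to 593 (median 48.15) in liver and 17.7, 137, 33.3 and 42.1 in intestine. It was nevertheless called in exposed fish, where it differed by 3.16 ± 0.29 (limma adjusted p = 7.9e-09).

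Genes of lipid metabolism fell on both sides. Of 15 measured genes of fatty acid and triglyceride synthesis, 5 were higher in exposed livers and 3 in exposed intestines, with a control median of 0.01. The polyunsaturated fatty acid elongase elovl5 had 8799 to 12549 (median 10760) in control livers and 0.5905, 0, 0 and 4.01 in control intestines. Its relative elovl6, which lengthens saturated fatty acids, had 758 to 2549 (median 1446) and 5.31, 4.22, 13 and 5.35. The acyl-CoA synthetase acsl5 was the reverse, with 0 to 16 (median 4.88) in liver and 22348, 19686, 16426 and 25699 in intestine. The 3 genes were called in exposed fish with differences of 11.73 ± 0.14, 7.57 ± 0.23 and -10.59 ± 0.38 (limma adjusted p = 2.8e-45, 2e-28 and 7e-25). Of 25 genes of fatty acid oxidation, 3 were called on each side, against 15.9% of all genes in liver and 23.6% in intestine. Carnitine palmitoyltransferase, the gate of mitochondrial fatty acid entry, had separate family members on both sides. cpt1b had 1220 to 8458 (median 4788) in liver and 10.6, 1.41, 15.8 and 12.7 in intestine, and cpt1ab had 405 to 972.5 (median 610) and 4918, 4298, 4803 and 4083. Under per-million scaling the counts were 3 and 7 for synthesis and 1 and 9 for oxidation, and both medians were negative. All 13 cholesterol synthesis genes had a positive control difference (median 1.34), with 4 called in exposed livers, but 1 was called under per-million scaling and the exposed median there was -0.14.

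Bile acid genes also fell on both sides, with 2 of 5 synthesis genes called in exposed livers and 1 in exposed intestines, and 3 and 1 of 7 transport and sensing genes. Under per-million scaling the counts were 1 and 3 for synthesis and 2 and 2 for transport, with exposed medians of -1.24 and -0.92. The sterol hydroxylase cyp39a1 had 2065 to 5298 (median 3263) in control livers and 119, 49.2, 91 and 121 in control intestines. The mitochondrial sterol hydroxylase cyp27a1.1 had 153 to 1478 (median 577) in liver and 2390, 2369, 1950 and 3362 in intestine. Livers 3, 4 and 5 lay well above livers 1, 2 and 6, and all lay below the intestines. Of the transport genes, slc51a, a subunit of the basolateral bile acid exporter known from the mammalian ileum, was on the liver side, at 17270 to 25706 (median 20512) against 39.6, 28.8, 36.7 and 95. abcb11a, a copy of the mammalian canalicular bile salt pump, was on the intestine side, at 0 to 10.7 (median 1.33) against 1322, 462, 508 and 1491. In exposed fish slc51a differed by 8.88 ± 0.10 and abcb11a by -6.79 ± 0.56 (limma adjusted p = 6.4e-47 and 1.3e-12). Copies are named as in the reference. The bile acid receptor nr1h4 had 965.5 to 1845 (median 1662) in liver and 168, 164, 214 and 146 in intestine. The sterol exporters abcg5 and abcg8 overlapped between organs, with control differences of 0.25 and 0.52.

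**Figure D3:**
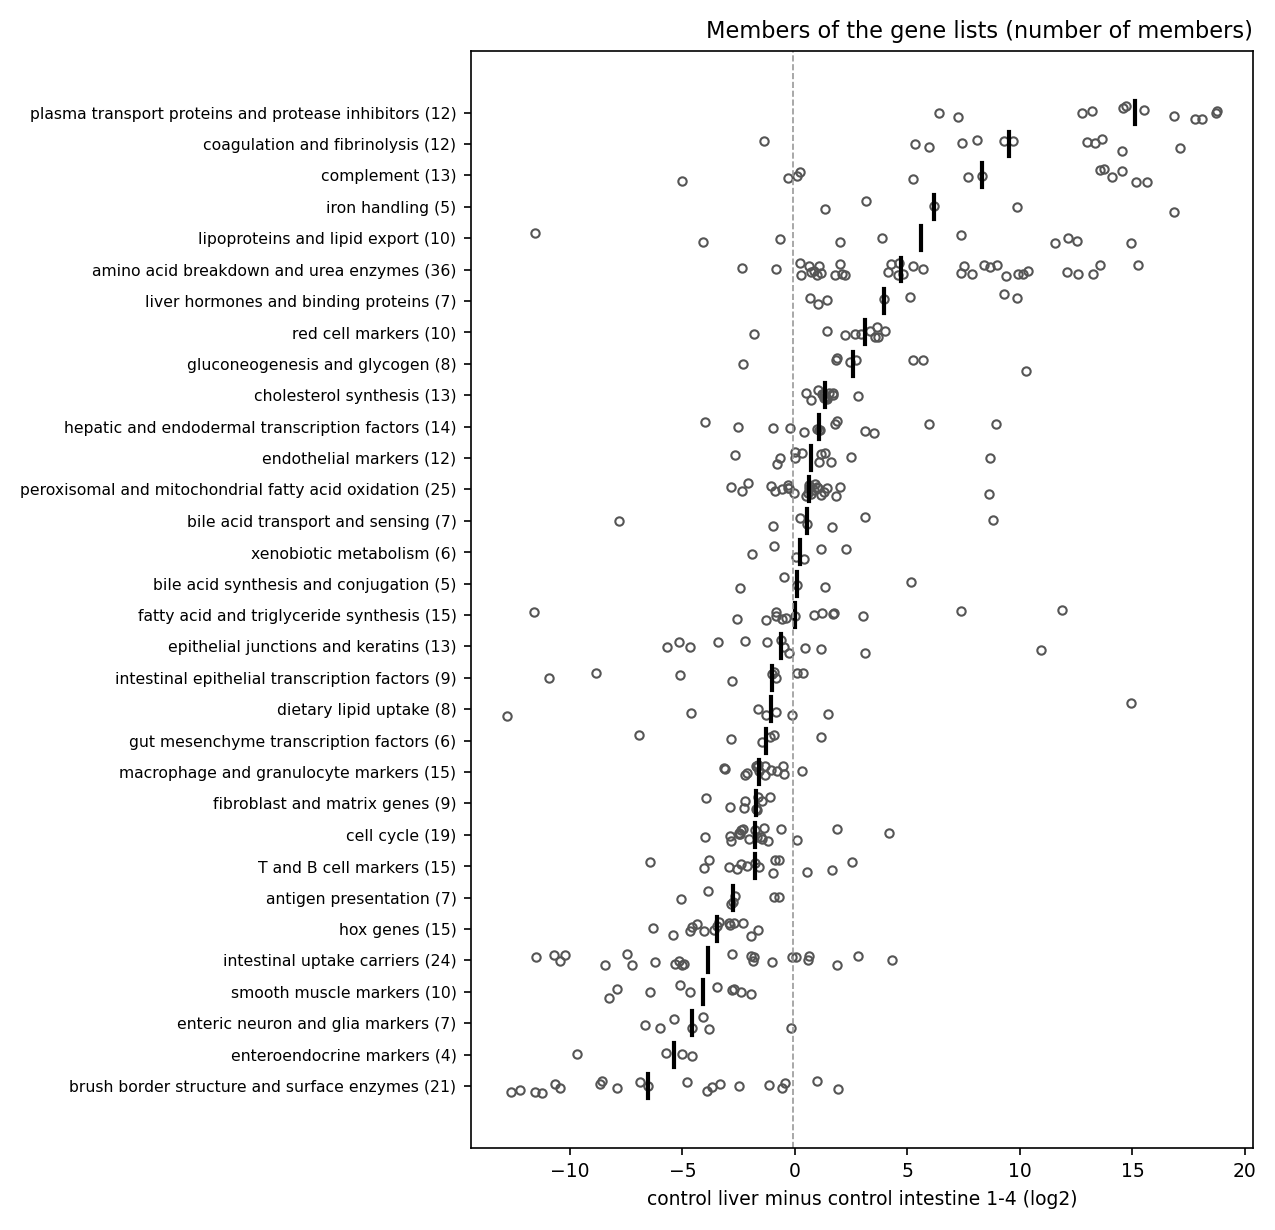
Log2 difference of control liver minus control intestine for each measured member (circle) of the lists with 4 or more members, with the list median as a bar and the median of all genes as a dashed line; the number of members stands in brackets. Plasma proteins lie at 6.42 to 18.78 and brush border genes mostly below 0, with ezrb as the called exception.

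Xenobiotic metabolism was represented by 6 genes, of which 1 was called on each side in exposed fish, against 15.9% and 23.6% of all genes. The gene on the intestine side was the organic anion pump abcc3, with 103 to 254 (median 173) in control livers and 597, 609, 694 and 779 in control intestines.

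On the intestine side, the genes furthest out were ret2, which had no read in the 6 control livers and 24361, 14523, 11930 and 15853 in the intestines, at least 21077-fold higher, and zanl, with 0 to 7.55 (median 0) and 20073, 23731, 11062 and 33177. The membrane protein gene smim1 had no read in liver and 9605, 6025, 3859 and 7267 in intestine, at least 8459-fold higher. The chloride channel family gene clic5a had 0 to 3.26 (median 0) and 11348, 5343, 4230 and 11365. mamdc4, which encodes a glycoprotein of apical endosomes in the rat gut, had 0 to 10.7 (median 4.93) and 23337, 9749, 14871 and 26588. These 5 genes were all called in exposed intestines.

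Of 21 measured genes of brush border structure and surface enzymes, 17 were higher in exposed intestines and 1 in exposed livers, and the control median was -6.52. The metalloproteases meprin alpha (mep1a.2) and meprin beta (mep1bb) cut peptides at the microvillus surface. mep1a.2 had 0 to 1.63 (median 0) in control livers and 17499, 11484, 8600 and 21359 in control intestines, and mep1bb had 0 to 3.55 (median 0) and 17072, 12394, 7882 and 17857. Intestinal alkaline phosphatase (alpi.2) had 0 to 6.65 (median 2.52) and 12837, 11085, 5945 and 11642. The microvillus cadherin cdhr5b, which links neighbouring microvilli, had 0 to 7.1 (median 1.33) in liver and 10080, 12592, 5740 and 15578 in intestine. The motor protein myo7bb, which anchors that link, had 0 to 15.4 (median 3.02) and 7183, 10581, 12431 and 3138. These 5 genes did not overlap and were called in exposed fish at differences between -12.72 and -10.45. The member on the liver side was ezrb. Ezrin ties actin to the membrane of microvilli, and its copies were opposed. ezra had 118 to 298 (median 185) in liver and 2809, 2742, 3145 and 2673 in intestine, while ezrb had 1270 to 2630 (median 2080) and 341, 1465, 477 and 305, overlapping only through intestine replicate 2. Among the libraries left out, control intestines 5 and 6 had 5895 and 7541 for ezrb, above every control liver. With them included ezrb was not called.

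Of 24 measured uptake carriers and channels, 16 were higher in exposed intestines and 3 in exposed livers, with a control median of -3.85. The peptide transporter copies slc15a1 and slc15a1a were among them. slc15a1 had 3.02 to 12 (median 8.48) in control livers and 22422, 11369, 9537 and 19976 in control intestines. slc15a1a had 0 to 2.66 (median 0) and 7870, 7933, 4861 and 6485. In the exposed intestines their lowest values were 9.71 and 1.295, within the liver range, while the medians were 13334 and 4867. The sodium-glucose cotransporter slc5a1 had 77 to 221 (median 99.6) and 8509, 11042, 4750 and 14332. The neutral amino acid carrier slc6a19, which took part in choosing the libraries, had no read in the 6 livers and 7487, 1831, 303 and 13988 in the intestines, where replicate 3 was far below the others and replicate 4 the highest. The anion exchanger copies of slc26a6 were opposed, with slc26a6.2 at 0 to 6.46 (median 2.365) in liver and 5566, 4748, 3724 and 5729 in intestine, and slc26a6.1 at 2458 to 4681 (median 3755) and 942, 876, 694 and 1464. slc26a6.1 was not called under per-million scaling. The copper importer slc31a1 was on the liver side, at 23267 to 110493 (median 55319) against 4172, 2077, 1718 and 3309.

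Of 8 genes of dietary lipid uptake, 4 were higher in exposed intestines and 2 in exposed livers. The intestinal fatty acid binding protein fabp2 had 0 to 22.8 (median 5.19) in control livers and 67830, 30578, 52576 and 59180 in control intestines. The carotene-cleaving enzyme bco1 had 207 to 446 (median 333) and 11828, 5570, 4408 and 13984. In exposed intestines fabp2 ran from 60.9 to 104053 and bco1 from 175.5 to 20018, so that the lowest bco1 value was below the control livers. The medians there were 58395 and 12746, and the lowest value of a gene can rest on a single library. Every exposed intestine was kept, whereas the control intestines were chosen by measured values. For the enterocyte genes used in that choice, the lowest exposed values were 15045 for apoa1, 3719 for npc1l1, 834 for slc6a19 and 2787 for cdx1b. Whether the low values of different genes fell in the same library is not shown here. Replicate 3 of low enniatin B, the intestine with the highest cubn, was kept too, though it had been marked as standing apart. Leaving out a single library gave 6153 to 6202 genes higher in exposed intestines. The cholesterol uptake protein npc1l1, another gene that chose the libraries, was also read in liver, at 2585 to 7311 (median 3970) against 14198, 13075, 8456 and 16786. The sterol esterifying enzyme soat2 had 3568 to 9672 (median 6244) in liver and 2384, 2893, 1190 and 2405 in intestine and was called in exposed livers at 1.30 ± 0.10, a difference that went to -0.01 under per-million scaling.

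Tight junction genes separated by member. Claudins seal or open the space between epithelial cells. cldn2 had 3620 to 4819 (median 3863) in control livers and no read in the 4 intestines, at least 8459-fold higher, while cldn15a had 92.3 to 227 (median 167) in liver and 9290, 9482, 5017 and 8959 in intestine. The junction protein cgnb, a copy of cingulin, was higher in liver, at 510.5 to 915 (median 763) against 83.85, 91.4, 83.6 and 78.3. The desmosome gene dspa had 128 to 214 (median 148) in liver and 4892, 6919, 4952 and 5237 in intestine. Of 13 members of the junction and keratin list, 3 were called higher in exposed livers and 6 in exposed intestines. Under per-million scaling the counts were 2 and 9.

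Epithelial transcription factors differed in both directions. Of 14 hepatic and endodermal factors, 7 were higher in exposed livers and 2 in exposed intestines. Of 9 intestinal epithelial factors, 4 were higher in exposed intestines and none in exposed livers. The homeobox factor cdx1b, of intestinal identity, had no read in the 6 livers and 3866, 5034, 3395 and 3732 in the 4 intestines, at least 5067-fold higher, and it helped to choose the libraries. The Kruppel-like factor klf5l had 0 to 6.52 (median 3.485) in liver and 2569, 1994, 1757 and 2995 in intestine. The nuclear receptor hnf4g had 140 to 464 (median 186) and 4362, 3075, 2608 and 5284, and the GATA factor gata5 had 13.7 to 103 (median 54.1) and 440, 308, 186 and 205. On the other side, foxa1, a forkhead factor of endoderm, had 849 to 1102 (median 977) in liver and no read in control intestines 1 to 4 or in the 23 exposed intestines. Control intestines 5 and 6 had 623 and 819. The hepatic factor onecut2 had 229 to 370 (median 302) in liver and 1.18, 1.41, 3.39 and 6.02 in intestine, and cebpb had 3332 to 4894 (median 4112) and 304, 208, 552 and 432. cebpa and nr1h3, a factor of hepatocytes and a sterol receptor, overlapped, with control differences of -0.22 and 0.41. Under per-million scaling the hepatic list had 4 genes called on each side and an exposed median of -0.01, and the intestinal list 8 called in intestine.

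**Figure D4:**
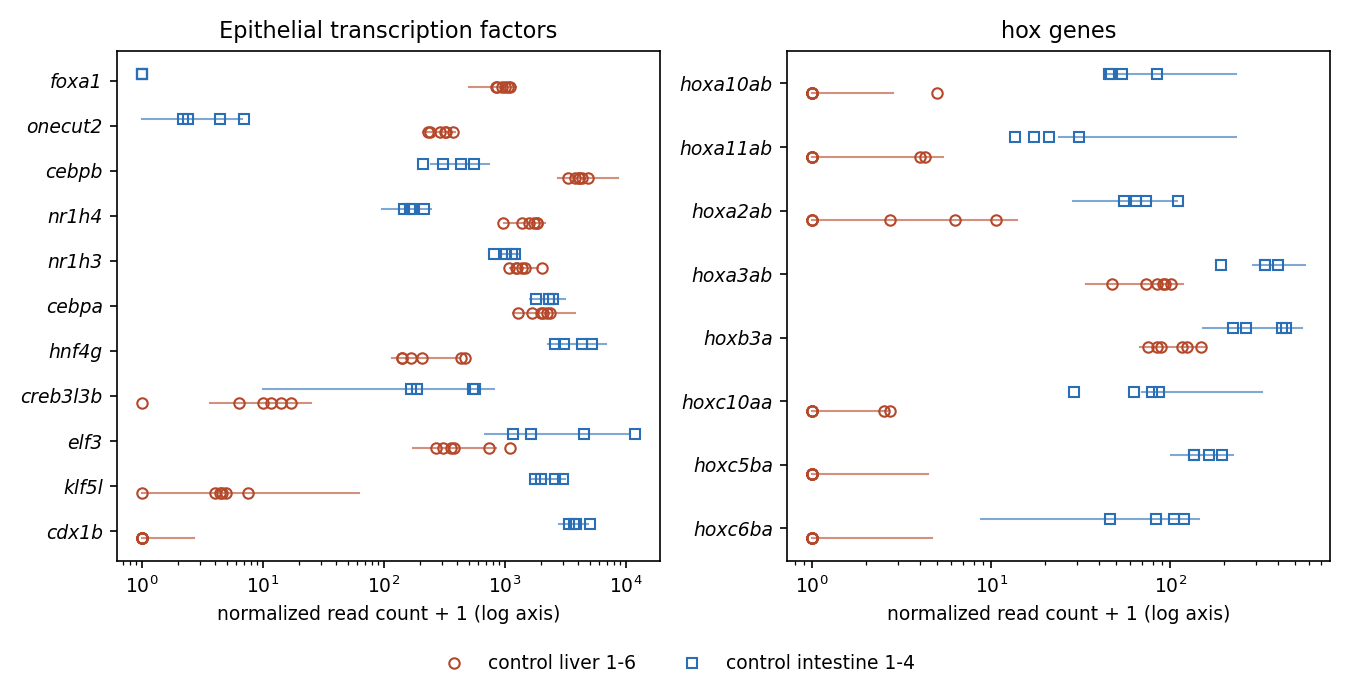
Normalized read count plus 1 on a log axis for epithelial transcription factors and for named hox genes; circles are the 6 control livers, squares the 4 control intestines, and lines span the 23 exposed libraries of each tissue. foxa1 lies at no read in every intestine shown, cdx1b at no read in the control livers, and the squares of every hox gene drawn lie above its circles.

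Hox genes, which mark position along the body axis, were all on the intestine side. The 15 measured members were higher in control intestines with no overlap, with a median of -3.47, and all 15 were called in exposed intestines. hoxc5ba and hoxc6ba had no read in the 6 livers. hoxc5ba had 193, 135, 164 and 134 in the intestines, at least 198-fold higher, and hoxc6ba had 104.5, 45, 81.9 and 118, at least 111-fold higher. Among the named members the highest liver values were those of hoxa3ab, with 46.15 to 100 (median 86.8) in liver and 338, 193, 339 and 402 in intestine, and hoxb3a, with 74 to 149 (median 102) and 444, 223, 263 and 423. For 3 of the posterior genes the median of the exposed intestines was above all 4 control values. hoxa10ab had 45.5, 44.3, 52.55 and 82.9 in control intestines and a median of 97.7 in exposed ones. hoxc10aa had 62, 28.1, 78.5 and 85.6 and a median of 117. hoxa11ab had 20.1, 12.65, 16.4 and 30.1 and a median of 87.5. The posterior gene hoxc10ab did not move that way, with tissue differences of -2.88 in controls and -2.76 in exposed fish. Those of its copy hoxc10aa were -4.64 and -5.76. The difference between control and exposed intestines was not tested.

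The wall of the gut was visible in its own markers. All 10 smooth muscle genes were higher in exposed intestines, with a control median of -4.07, and so were all 9 fibroblast and matrix genes (median -1.74) and 6 of 7 neuron and glia genes (median -4.56). acta2, which helped to choose the libraries, had 111 to 347 (median 249) in control livers and 79177, 38592, 38646 and 85985 in control intestines. The calponin gene cnn1b, of smooth muscle contraction, had 17.8 to 67.8 (median 29.25) and 11551, 6013, 9613 and 18515. Intestines 1 and 4 were the highest for both genes. The receptor ret, of enteric neurons, had no read in the 6 livers and 138, 137, 130 and 107 in the intestines, at least 162-fold higher. The intermediate filament prph, of peripheral neurons, had 0 to 3.23 (median 0) and 365.5, 124, 342 and 373, lowest in intestine replicate 2. The collagen gene col1a1b had 9886 to 14854 (median 10679) in liver and 58338, 46719, 55632 and 48190 in intestine. The 4 measured enteroendocrine genes were all higher in intestine. Among them the gut peptide pyy had 0 to 3.02 (median 0) in liver and 2521, 1910, 1673 and 1680 in intestine, and the neuropeptide gene vipb had no read in liver and 151, 36.6, 94.9 and 215 in intestine. The secretory chaperone agr2, of goblet cells, had 6.46 to 25.7 (median 16.6) and 4305, 4626, 5327 and 1654, and 2 of 3 goblet and secretory genes were called in intestine and 1, foxa1, in liver. Of 6 transcription factors of gut mesenchyme 2 were called in intestine and none in liver, and the 1 measured biliary gene, anxa4, was not called.

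Immune genes were mostly higher in intestine in exposed fish and in the chosen controls. Of 15 T and B cell genes, 9 were higher in exposed intestines and 2 in exposed livers, and of 15 macrophage and granulocyte genes 7 and none. In all 12 labelled controls only 3 and 2 genes of these lists were called in intestine, against 14.2% of all genes. T and B cell genes together took 0.0338 to 0.0484% of reads in control livers and 0.0267 to 0.0483% in intestines 1 to 4, which overlap. The T cell coreceptor cd8a had 0 to 3.02 (median 0) in control livers and 249, 271, 182 and 222 in control intestines, and the T cell receptor subunit cd3e had 105 to 133 (median 126) and 608, 1144, 684 and 607. The macrophage gene mpeg1.1, a pore-forming protein, had 598 to 1240 (median 944) and 6144, 11454, 6771 and 7545. Intestine replicate 2 was the highest for these 3 genes. The gut-homing chemokine receptor ccr9a had 16.15 to 73.4 (median 21.75) in liver and 120.5, 245, 395 and 269 in intestine. The 2 genes on the liver side were xbp1, a transcription factor of secretory cells as well as plasma cells, with 13466 to 23061 (median 17364) and 3307, 2984, 4546 and 1733, and the B cell adaptor blnk, with 2110 to 3117 (median 2348) and 645, 1288, 558 and 904. blnk was not called under per-million scaling. Of 7 antigen presentation genes, 5 were higher in exposed intestines. The immunoproteasome subunit psmb9a had 21.3 to 120 (median 81.7) in liver and 990, 1709, 1099 and 698 in intestine. The invariant chain cd74a, of class II presentation, had 6257 to 11353 (median 9170) and 42207, 84169, 51454 and 55365.

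Cell cycle genes were higher in intestine for 13 of 19 members in exposed fish. In controls only 2 of 19 were apart without overlap on that side, against 27.8% of all genes. Ribonucleotide reductase (rrm2), which makes DNA precursors, had 3.26 to 32.3 (median 22.2) in control livers and 216, 612, 448 and 79.6 in control intestines. The replication helicase subunit mcm3 had 63.45 to 544 (median 95.7) and 605, 1791, 1341 and 167. Intestine replicates 2 and 3 were the highest for both genes and replicate 4 the lowest. mcm3l and mcm6 were called on the liver side. mcm3l had 190 to 502 (median 354) in liver and 40.7, 15.5, 4.52 and 24.1 in intestine, and mcm6, which was not called under per-million scaling, had 2037 to 3322 (median 2584) and 565, 1560, 1301 and 216.

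Of 10 red cell genes 9 were higher in exposed livers and 1 in exposed intestines, with a control median of 3.13, and they took 0.0252 to 0.0431% of reads in control livers and 0.00704 to 0.0139% in intestines 1 to 4. Under per-million scaling 5 and 1 were called, and the exposed median went from 2.57 to 1.32. The haem enzyme alas2, of red cells, had 1781 to 8029 (median 4856) in liver and 258, 99.8, 128 and 1540 in intestine. The erythropoietin receptor epor had 222 to 403 (median 307) and 20.1, 16.9, 11.3 and 67.55. Of the 4 intestines, replicate 4 was the highest for both. The same library held the most exocrine pancreas transcripts, with 169.5, 21.8, 16.95 and 1709 for the trypsin gene prss1 across intestines 1 to 4, 95.7, 35.15, 4.52 and 1128 for the chymotrypsin-like gene ctrl and 130.5, 1.41, 13.6 and 1356 for carboxypeptidase B (cpb1), against liver medians of 25.1, 0 and 1.51. Of the 3, cpb1 was called in exposed intestines, though not with a pseudocount of 10. ctrl was called by edgeR and DESeq2, and both ctrl and prss1 under per-million scaling and when any difference was tested. The part of blood and pancreatic cells in other differences was not tested. Of 12 endothelial genes, 4 were called in liver and 1 in intestine, but 1 and 6 under per-million scaling, where the exposed median went from 0.62 to -0.69. esamb, a copy of an endothelial adhesion gene, had 603 to 946 (median 877) in liver and no read in the 4 intestines, at least 1745-fold higher, while esama had 494 to 680 (median 535) and 207, 138.5, 247 and 150 and was not called under per-million scaling.

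Gene pairs with opposite tissues were also counted across the whole table. Among 148 pairs of symbols that differ in a last letter a or b, 12 had 1 gene called higher in exposed liver and its partner higher in exposed intestine (15.9% and 23.6% of all genes were called on these sides, so that unrelated genes also form such pairs, and no excess is claimed), 9 were both called in liver, 16 both in intestine, 22 had 1 gene called in liver, 25 had 1 gene called in intestine and 64 had none. Some pairs are separate family members and not copies of 1 gene, and reads of near-identical copies can be split or shared by the counting. In 6 of the 12 pairs both calls were also made under per-million scaling and in each fit that left out 1 exposed library, and these 6 were chosen after their values were seen. The adhesion genes igsf5a and igsf5b were furthest apart. igsf5a had 1.51 to 16.15 (median 4.56) in control livers and 2872, 2378, 1602 and 3262 in control intestines, and igsf5b had 3637 to 4821 (median 4394) and 62.6, 171, 125 and 55.5. The neuronal scaffold genes kidins220a and kidins220b had 2656 to 4283 (median 2877) and 256, 224, 224 and 309, and 162 to 245.5 (median 210) and 713, 752, 849 and 1357. For the multivitamin transporter, slc5a6a had 217 to 350 (median 268) in liver and 1434, 758, 966 and 767 in intestine, and slc5a6b had 1861 to 3432 (median 2321) and 371, 311, 311 and 411. For tm6sf2, which in mammals supports lipoprotein secretion, copy a had 712 to 1801 (median 1164) in liver and 2677, 3247, 2847 and 3363 in intestine, and copy b had 37.3 to 979 (median 391) and 1.77, 3.515, 1.13 and 2.675. The control groups of these 8 genes did not overlap. dram2a, dram2b, pdlim5a and pdlim5b made up the other pairs, with exposed differences of 3.92 ± 0.15, -1.93 ± 0.09, -2.65 ± 0.21 and 2.75 ± 0.10 (limma adjusted p = 6.3e-22, 9.8e-13, 2.5e-09 and 8.2e-21). The control intestines 5 and 6, left out, had 160.5 and 334 for dram2a, against 214 to 465 in control livers, and it was not called in all 12 labelled controls.

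**Figure D5:**
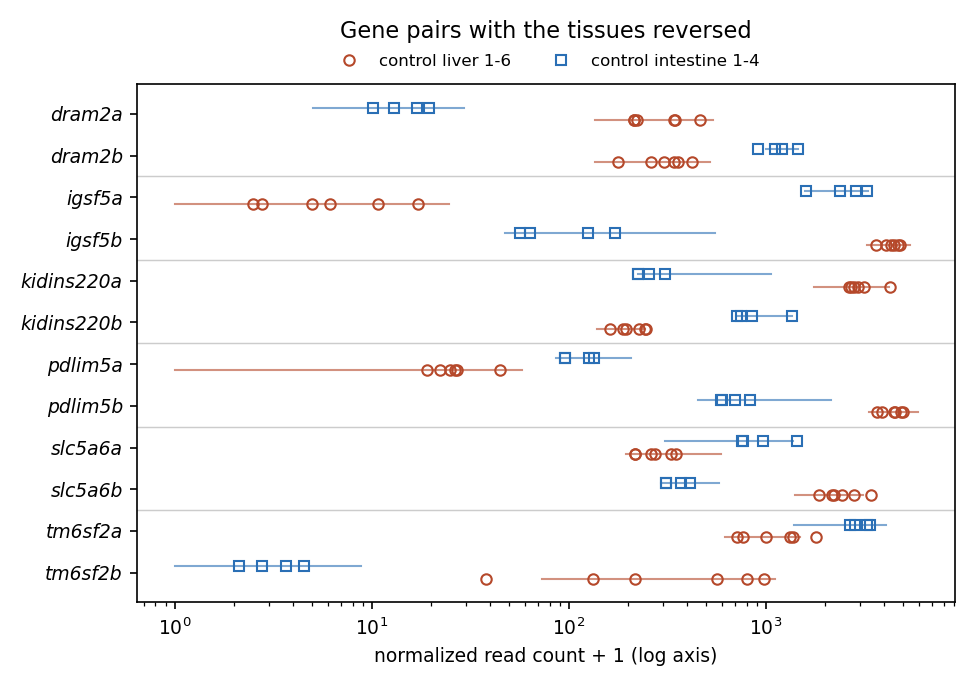
Normalized read count plus 1 on a log axis for the 6 gene pairs; circles are the 6 control livers, squares the 4 control intestines, and lines span the 23 exposed libraries of each tissue. In each pair the member that is higher in liver and the member that is higher in intestine have control groups that do not overlap.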

How the data were processed

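Polyadenylated RNA of liver and distal intestine was sequenced in 150 bp reads. Per the submitters' processing notes the tools were Trim Galore 0.4.2, FastQC, HISAT2, featureCounts of Subread and DESeq2 1.18.1, with no order or role given. The authors deposited 1 table of normalized counts (a signal: reads divided by a size factor) for 26239 genes and 58 libraries, and genes of lower expression had been removed, since the lowest mean is 21.1. Low values are whole multiples of 1 read in each library, and 99.9999% of values came out within 0.1 of a whole read (largest distance 0.17). The depth given is the sum of these reads, and counting error is therefore small beside the spread between samples except for genes with a few reads. GeneIDs were matched to Ssal_v3.1 names (24184 matched, 7529 have symbols that are not LOC numbers). Near-identical copies may share reads.

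Values were taken as log2(value + 2), on which scale differences of low genes are understated. Genes that reached 10 in 5 exposed or 4 control libraries were fitted with limma 3.58.1 in R 4.3.3 (trend, robust), with treat beyond 2-fold and Benjamini-Hochberg adjusted p under 0.05 over all genes; edgeR 4.0.16 and DESeq2 1.42.0 on the recovered reads were alternatives. Errors of log2 differences are limma standard errors. The test was run on simulated counts in which only planted genes differed between tissues. That check therefore does not bear on the scaling. Named genes were the 12 furthest apart on each side in controls, in each of 35 lists (390 genes) up to 5 called members with the largest and 2 with the smallest control difference, the 5 genes that chose the libraries and opposed copies. The members on the minority side of a list, the 6 gene pairs, the runs of neighbours and the pancreas and cubn values were added after values were seen. Members and lists were chosen with earlier results of these data known. A control ratio against a group with no read takes 3 reads over the group as its floor. Values of 2 named genes are not reported here.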

Additional observations from a re-analysis of the deposited data

Results flagged for a closer look

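In 308 control groups of 196 of the named genes, 28 held 1 library far from the others by Dixon's gap criterion. It was applied to normalized counts and not to log2 values. Its rate by chance of about 1 in 20 groups holds for normally distributed values, so the 28 cannot be set against it. Some named members with the smallest control differences, c7b among them, are not in these groups. No cause was tested. Control intestine replicate 1 stood apart for fth1b at 93.3 (others 18.3 to 20.7). Control intestine replicate 2 stood apart for dspa at 6920 (others 4890 to 5240), prph at 124 (others 342 to 373), cd3e at 1140 (others 607 to 684), tap2a at 746 (others 276 to 304), fabp3 at 332 (others 538 to 545) and ezrb at 1470 (others 305 to 477). Control intestine replicate 3 stood apart for cldn15a at 5020 (others 8960 to 9480). Control intestine replicate 4 stood apart for slc51a at 95.0 (others 28.8 to 39.6), cpb1 at 1360 (others 1.41 to 130), prss1 at 1710 (others 17 to 169), alas2 at 1540 (others 99.8 to 258), epor at 67.6 (others 11.3 to 20.1) and ctrl at 1130 (others 4.52 to 95.7). Control liver replicate 1 stood apart for cldn2 at 4820 (others 3620 to 3980) and apobb.1 at 407000 (others 503000 to 546000). Control liver replicate 2 stood apart for c5 at 116000 (others 168000 to 191000), prss1 at 3.99 (others 22.2 to 27.7), tfr1a at 7480 (others 9890 to 11100) and mcm3 at 544 (others 63.4 to 145). Control liver replicate 3 stood apart for dspa at 214 (others 128 to 160) and kidins220a at 4280 (others 2660 to 3140). Control liver replicate 4 stood apart for lpin1a at 481 (others 25.7 to 78.1) and tap2b at 126 (others 47.9 to 65.7). Control liver replicate 6 stood apart for col6a1 at 2620 (others 1330 to 1710), col1a1b at 14900 (others 9890 to 11400), col1a1a at 8590 (others 4720 to 5900) and pdlim5a at 43.6 (others 18.1 to 26.1).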

How the results depend on the processing

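Main counts were 4160 genes higher in liver and 6194 higher in intestine in exposed fish, 2669 and 3723 in the 12 controls, and 4438 and 6201 for 6 against 4 controls. Per-million scaling gave 2043 and 15166, 1474 and 10780, and 2061 and 15062. In exposed fish, testing for any difference gave 10518 and 12109, and for a 4-fold difference 2248 and 3511. Leaving out 1 library gave 4135 to 4176 and 6153 to 6202 in exposed fish, 2471 to 2781 and 3403 to 4021 in the 12 controls, and 4447 to 4900 and 6254 to 6634 for 6 against 4. Both ranges for 6 against 4 lie above the main counts of 4438 and 6201. Leaving out a library can remove overlap between groups but not add it, so these ranges do not check the counts. Of the 196 named genes followed here, 3 called ones changed sign in exposed fish under per-million scaling, bmp6 to -0.003, soat2 to -0.008 and flt1 to -0.011. That scaling shifted the median of all genes by -1.297. Most genes with smaller positive differences therefore change sign too, and they are not in this count. For these 196 genes in exposed fish, 11497 values over all alternatives stayed on the same side of the threshold, 51 lost it (38 genes) and 13 gained it (5 genes). Named members with the smallest control differences of a list, such as gbe1a, are in part left out of the 196 genes. The counts can therefore understate how many named genes change. For 6 against 4 controls, 289 values (173 genes) moved by more than the spread between samples, all under per-million scaling or a pseudocount of 0.5 or 10, and 3224 did not. edgeR gave 4575 and 6284 and DESeq2 4177 and 6031 in exposed fish. The labels do not say that equal numbers mark 1 fish. Over 29 same-numbered pairs the correlation of deviations was 0.036 to 0.264, over 0.1 in 27, and the own number correlated best in 28, a hint from the data. With the replicate block the counts were 4228 and 6264 in exposed fish and 2697 and 3736 in the 12 controls. For the chosen controls the block was fitted to livers 1 to 4 and intestines 1 to 4, which gave 4516 and 6432. Livers 5 and 6 were left out there and the overlap of groups does not use the block, so these counts do not show its effect. All livers carry 1 series of sample numbers and all intestines another, in controls and exposed fish alike. The labels do not say what these series stand for, and a difference between them cannot be told apart from tissue. The main limits are the scaling, whole tissue, these number series, and 4 control intestines chosen on measured values.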

Other observations

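A few genes were read in some replicate numbers and hardly in others, in both tissues alike. Genes were searched, after their values were seen, for a value under 5 or over 50 in every library of both tissues with at least 2 libraries on each side, which gave 6 genes. In 5 of them, vps45 among them, the state was alike in liver and intestine of all 29 same-numbered pairs. The vesicle transport gene vps45 had no read in both tissues of control 3 and of high enniatin B 5. In 11 pairs with 143 to 277 in liver the intestine had 153 to 240. In 16 pairs with 314 to 575 in liver the intestine had 316 to 462, so that the pairs kept their order in both tissues at a split of 300. These values bear on whether equal numbers name the same fish, which the labels do not say.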
